A study of Mus musculus with 12 samples.

Results

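The transcription factors and nuclear cofactors described here are 10 listed genes that act around the progesterone receptor gene Pgr in the ovulatory response of granulosa cells: Pgr, Runx1, Runx2, Cebpa, Cebpb, Zbtb16, Cited2, Cited4, Pparg and Nrip1. Members were every probe set whose annotation names 1 gene and that gene is on the list. This gave 26 probe sets of 9 genes, among 34945 such probe sets of 18193 genes. No single-gene probe set of Runx2 was in the annotation used, and Runx2 was not analysed here.

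RNA of mouse granulosa cells, the somatic cells that line the ovarian follicle and feed the oocyte, was measured on 12 single-colour Affymetrix arrays in 4 groups of 3 samples. The groups were Inha-/- after PMSG and hCG, wild type after PMSG and hCG, Inha-/- after PMSG alone, and wild type after PMSG alone. Inha encodes the inhibin alpha subunit, and the Inha-/- animals (called knockout below) lack it in every cell, the pituitary and the other cells of the ovary included. All mice were 21 days old, of the mixed strain C57BL/6J;129S5/SvEvBrd, and all had received 5 IU of PMSG, a gonadotropin that acts like FSH and drives follicles to the preovulatory stage. Cells were collected 44 to 46 h after PMSG, or 6 h after a further 5 IU of hCG, which binds the LH receptor and starts ovulation. They were released by puncturing antral follicles, and the labels name no sort that would remove other cells. The labels call the samples independent without saying whether each came from 1 animal, so that p values measure the spread between these samples.

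The LH surge induces Pgr in the granulosa cells of preovulatory follicles, and mice without PGR form mature follicles that do not rupture. RUNX1 and RUNX2 bind DNA with the partner CBFB, and C/EBP alpha and beta, which mouse granulosa cells need for luteinization, form dimers with each other. ZBTB16 is a zinc finger repressor, CITED2 and CITED4 bind the coactivators CBP and p300, PPARG is a nuclear receptor that pairs with RXR, and NRIP1 (RIP140) is a corepressor of nuclear receptors without which female mice fail to ovulate.

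The sequences upstream of 4 of the genes that rose with hCG in wild type are printed. These are Pgr, Runx1 (both annotated starts), Cited4 and Cebpb, the last called on probe set 1418901_at only. Zbtb16 and, on probe set 1452207_at, Cited2 rose as well and are not printed. Each is the 250 bases before the start, 5′ to 3′ on the strand of the gene, from RefSeq (build GRCm38.p6). The windows are chr9:8899583-8899832 on the plus strand for Pgr, chr16:92826075-92826324 and chr16:92697330-92697579 on the minus strand for Runx1, chr4:120666313-120666562 on the plus strand for Cited4 and chr2:167688665-167688914 on the plus strand for Cebpb. Capitals mark CCAAT boxes (CCAAT), GC boxes (GGGCGG) and the core of the cAMP response element (CRE; TGACG), on either strand.
Pgr: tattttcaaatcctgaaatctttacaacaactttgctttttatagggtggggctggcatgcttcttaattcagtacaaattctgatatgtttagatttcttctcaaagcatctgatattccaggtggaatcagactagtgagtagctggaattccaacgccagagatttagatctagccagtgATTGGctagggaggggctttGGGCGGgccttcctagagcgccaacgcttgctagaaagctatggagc
Runx1, first start: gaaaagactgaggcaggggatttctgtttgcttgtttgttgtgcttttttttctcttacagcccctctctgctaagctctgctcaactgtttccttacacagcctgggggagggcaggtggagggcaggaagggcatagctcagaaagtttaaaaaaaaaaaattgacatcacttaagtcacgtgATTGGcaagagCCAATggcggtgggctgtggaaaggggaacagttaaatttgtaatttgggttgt
Runx1, second start: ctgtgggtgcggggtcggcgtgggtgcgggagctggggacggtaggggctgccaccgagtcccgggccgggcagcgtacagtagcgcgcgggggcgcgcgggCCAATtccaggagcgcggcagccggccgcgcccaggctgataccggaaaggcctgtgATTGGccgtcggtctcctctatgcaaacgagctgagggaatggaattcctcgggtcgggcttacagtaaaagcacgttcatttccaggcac
Cited4: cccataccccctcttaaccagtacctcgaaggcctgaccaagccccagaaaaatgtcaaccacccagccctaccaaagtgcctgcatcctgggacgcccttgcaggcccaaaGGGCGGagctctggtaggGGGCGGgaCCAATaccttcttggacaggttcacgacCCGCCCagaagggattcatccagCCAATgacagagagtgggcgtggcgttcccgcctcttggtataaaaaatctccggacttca
Cebpb: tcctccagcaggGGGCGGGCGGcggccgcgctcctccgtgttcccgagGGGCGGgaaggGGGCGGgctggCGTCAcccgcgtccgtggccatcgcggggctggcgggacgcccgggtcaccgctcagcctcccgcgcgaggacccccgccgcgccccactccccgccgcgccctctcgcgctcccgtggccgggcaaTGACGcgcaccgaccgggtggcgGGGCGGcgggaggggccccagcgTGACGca

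The Pgr window holds 1 GC box, 47 to 42 bases before the start, and 1 CCAAT box on the opposite strand, 67 to 63 bases before it. Both Runx1 windows hold 2 CCAAT boxes, 1 on each strand, and no GC box. The Cited4 window holds 3 GC boxes and 2 CCAAT boxes. The Cebpb window has a GC content of 81.6%, against 43.6% for Pgr, and holds 5 GC boxes, 2 of which overlap by 2 bases, and 3 CRE cores. Of 32851 promoter windows in the same table, 32.7% hold a GC box, 33.8% a CCAAT box and 17.8% a CRE core, so that a match to these short motifs is frequent. The RUNX site (TGTGGT, in 14.0% of all windows), the C/EBP core (TTGCNNCA, 9.59%), the progesterone receptor motif (AGAACA, 16.1%), the NR5A site (AAGGTCA, 4.08%) and the AP-1 site (TGANTCA, 6.75%) had no match in the 5 printed windows. Windows were matched for 9 of the 10 listed genes, 13 windows in all, and Zbtb16 had none. The Cited2 window, which is not printed, holds 2 GC boxes and no match to the other motifs counted.

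Values are log2 expression after GCRMA, from which each probe set's own median (all 12 arrays) had been taken away. They therefore give differences between arrays and no level, and a probe set near background cannot be told from one that is steadily expressed. Differences were tested with limma over all 34945 probe sets, and a probe set was called at a Benjamini-Hochberg adjusted p under 0.05. As a check of the labels, Inha (1422728_at) stood at -12.81 in knockout relative to wild type after hCG and at -12.38 after PMSG (log2 fold change). Arrays of 1 group correlated at 0.388 to 0.722 in knockout after hCG, 0.683 to 0.823 in wild type after hCG, 0.205 to 0.358 in knockout after PMSG and 0.514 to 0.740 in wild type after PMSG. The serial numbers in the array names fall into 7 early and 5 late arrays. Wild type after PMSG has early arrays only, and each hCG group has 1 early and 2 late arrays. A second number within those names recurs in 3 pairs of arrays, 2 of which join a knockout and a wild-type array after PMSG and 1 of which joins 2 wild-type arrays after hCG. The labels do not say what it marks. Deviations from the group means correlate at 0.171, 0.265 and -0.431 within these pairs. The last pair lies within 1 group, where deviations from a mean of 3 arrays lean negative by construction. Its value therefore cannot be compared with the others. Limma estimated a correlation of 0.573 within a number, which served as a random block in an alternative fit.

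Of 42 comparisons called over the member probe sets, 11 were no longer called under quantile normalization, which makes the spread of all arrays equal, and 13 were smaller by over 1.5 times on the log2 scale, Pgr with its sign turned. With the random block 11 were no longer called, while the 42 values stayed at 0.893 to 1.08 times the reported ones. Of 38 that could be fitted with only the groups compared, 10 were lost. Values on the early or the late arrays alone are given for their size, since of the 12 member calls between genotypes after hCG 2 were kept on the early and 0 on the late arrays. Quantile normalization was run on the centred values. Their SD was 0.631, 0.535 and 0.760 on the wild-type hCG arrays and 0.441, 0.482 and 0.402 on the knockout hCG arrays. Making these equal tends to shrink the former and stretch the latter. Whether the unequal spread is technical was not tested, so that this fit cannot decide the size or sign of a genotype difference.

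Genotype also went with markers of cells other than granulosa cells, and these values stand beside every genotype difference below. The median of 10 oocyte markers lay between 0.644 and 3.16 on the knockout hCG arrays, between -1.90 and -0.644 on the wild-type hCG arrays, between 0.832 and 2.37 on the knockout PMSG arrays and between -1.80 and -0.693 on the wild-type PMSG arrays. Theca and stroma markers (10 genes) had medians of 0.569 to 2.54 in knockout after hCG, -1.16 to -0.490 in wild type after hCG, 0.498 to 1.73 in knockout after PMSG and -0.786 to -0.497 in wild type after PMSG. After hCG 7 oocyte and 6 theca and stroma markers were higher in knockout than in wild type, and 4 of 8 surface epithelium markers were lower. Of all genes 7.79% were higher and 5.47% lower in that comparison. After PMSG the marker counts were 2, 4 and 4 in the same order, beside 1.44% of all probe sets higher and 1.64% of all genes lower. No leukocyte marker (10 genes) or endothelium marker (9 genes) passed the limma test between genotypes at either time. At an unadjusted p under 0.05, 1 leukocyte marker was higher at each time, and 2 endothelium markers were higher and 1 lower after PMSG. Of 9 granulosa cell markers 3 were higher in knockout than in wild type after hCG and 1 was lower after PMSG, and 6 fell with hCG in wild type. Of all probe sets 6.17% fell with hCG in wild type. In knockout 0 of the 9 fell, beside 0.1% of all probe sets, with a median of -0.04 against -1.57 in wild type. For the difference in response (knockout minus wild type) 0 of the 9 passed the limma test. At an unadjusted p under 0.05, 7 were higher and 0 lower. The part of all these markers in the results was not tested, and in such bulk samples fewer cells of a type and less RNA per cell cannot be told apart. Since values are centred, the presence of the granulosa markers could not be checked by level.

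hCG raised Pgr strongly in both genotypes. The probe set with the largest spread, 1439527_at, read 3.40, 3.62 and 3.80 in knockout after hCG, 4.43, 4.12 and 4.46 in wild type after hCG, -3.72, -3.76 and -3.81 in knockout after PMSG, and -3.76, -3.40 and -3.59 in wild type after PMSG. The 6 hCG arrays all lie far above the 6 PMSG arrays, and after hCG every knockout array lies under every wild-type array. Groups without overlap are common here: of all probe sets 10.6% show none for hCG in knockout, 28.5% for hCG in wild type, 26.4% between genotypes after hCG and 17.8% after PMSG. The hCG response was 7.37 ± 0.13 (SE) in knockout (adjusted p = 1.47e-08) and 7.92 ± 0.13 in wild type (7.55e-09). Knockout was lower than wild type after hCG (log2 fold change -0.73 ± 0.13, 1.66-fold, adjusted p = 0.00695), and this difference turned to 0.57 in favour of knockout (adjusted p = 0.113) when the arrays were quantile normalized. It was -1.03 on the early and -0.58 on the late arrays, and called on neither. Before hCG the genotypes differed by -0.18 (95% interval -0.48 to 0.11, adjusted p = 0.649), and the responses of the 2 genotypes differed by -0.55 (-0.96 to -0.13), which did not pass the test over all probe sets (adjusted p = 0.288). Under quantile normalization these values turned too, to 0.26 before hCG and 0.31 between the responses, neither called.

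A second Pgr probe set, 1421444_at, also rose with hCG in both genotypes, with smaller values. It read 1.63, 1.17 and 1.15 in knockout after hCG, 2.21, 0.538 and 1.41 in wild type after hCG, -0.615, -0.706 and -0.538 in knockout after PMSG, and -0.655, -0.662 and -0.665 in wild type after PMSG. Its response was 1.94 ± 0.34 in knockout (adjusted p = 0.0263) and 2.05 ± 0.34 in wild type (0.00492). The knockout call was lost without any 1 of 8 arrays, which were all 3 knockout arrays of each treatment and replicates 2 and 3 of wild type after PMSG, with values of 1.78 to 2.02. Here the genotypes after hCG overlap and differ by -0.07 (95% interval -0.82 to 0.69), and by 0.45 under quantile normalization (adjusted p = 0.529). That difference was 0.34 without replicate 1 of wild type after hCG, and not called. Before hCG the genotypes differed by 0.04 on this set (adjusted p = 0.953), against -0.18 on 1439527_at. The third, 1455772_at, stayed between -0.0208 and 0.0846 on all 12 arrays and was not called in any comparison. Over the 12 arrays the first 2 correlate at 0.942 and at 0.284 once group means are removed. The third correlates with the first at 0.0409.

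**Figure D1:**
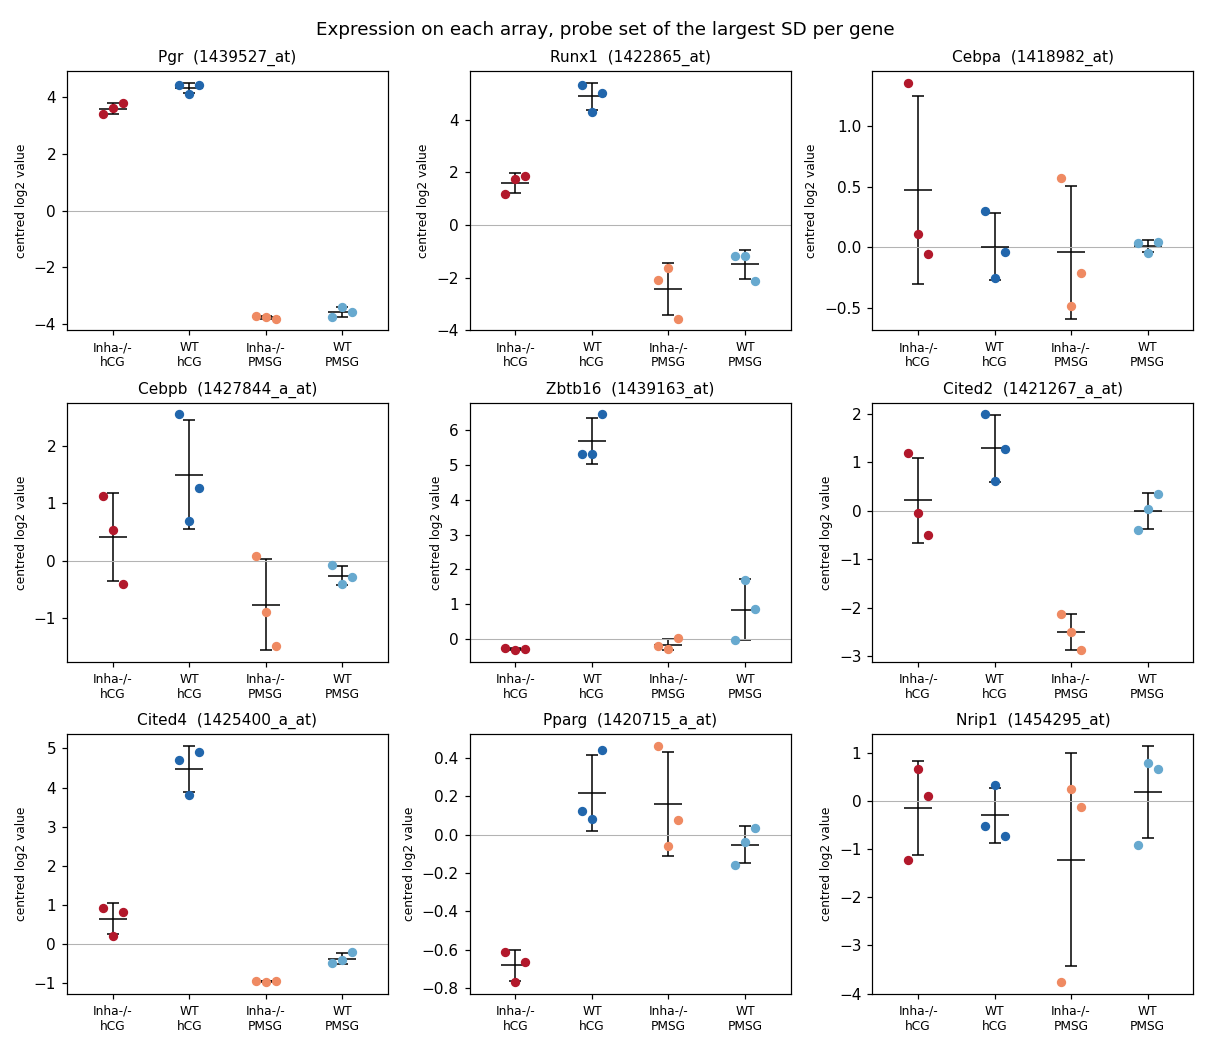
Centred log2 value of 1 probe set per gene (the one with the largest SD over the 12 arrays) on each array, 1 panel per gene; points are arrays, bars the mean with 1 SD, and groups run from Inha-/- after hCG to wild type after PMSG. Pgr separates by hormone, Runx1 and Cited4 are highest in wild type after hCG, and Zbtb16 is high only on the 3 wild-type hCG arrays.

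Runx1, which encodes a DNA-binding factor of the RUNX family, rose with hCG in both genotypes and was lower in knockout than in wild type after hCG. Probe set 1440878_at read 0.365, 1.39 and 1.04 in knockout after hCG, 4.86, 5.00 and 5.74 in wild type after hCG, -2.56, -2.48 and -2.39 in knockout after PMSG, and -0.365, -1.08 and -1.004 in wild type after PMSG. No 2 groups overlap, and the order from high to low is wild type after hCG, knockout after hCG, wild type after PMSG, knockout after PMSG. The response was 3.41 ± 0.31 (SE) in knockout (adjusted p = 0.000558) and 6.02 ± 0.31 in wild type (6.55e-06). The genotype difference after hCG was -4.27 ± 0.31 (19.3-fold lower in knockout, adjusted p = 9.27e-05), with -4.50 on the early and -4.16 on the late arrays. Under quantile normalization it was smaller, at -2.77 (adjusted p = 0.00133).

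On 1440878_at knockout was also lower after PMSG alone (-1.66 ± 0.31, adjusted p = 0.0228). That call was lost without any 1 of wild-type replicates 1 and 3 and knockout replicates 2 and 3 of the PMSG groups (values -1.76 to -1.44), under quantile normalization (-1.06, adjusted p = 0.114) and on early arrays alone (-1.71, 0.118). The knockout response was smaller than the wild-type response by 2.61 ± 0.44 (difference -2.61, adjusted p = 0.0318). This call was lost without any 1 of 7 arrays, which were replicates 2 and 3 of wild type and all 3 of knockout after PMSG and replicate 3 of either genotype after hCG (values -2.66 to -2.34). Under quantile normalization it was -1.71 (adjusted p = 0.169), and with the random block -2.49 (0.0647). None of the other 5 Runx1 probe sets passed the test for a difference in response or for a genotype difference after PMSG.

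The other Runx1 probe sets divide into those that follow 1440878_at and those that do not. Probe set 1422865_at, which has the largest spread, read 1.16, 1.74 and 1.86 in knockout after hCG, 5.32, 4.30 and 5.03 in wild type after hCG, -2.10, -1.64 and -3.56 in knockout after PMSG, and -1.19, -1.16 and -2.12 in wild type after PMSG. The 2 PMSG groups overlap on it and the 2 hCG groups do not. Its genotype difference after hCG was -3.29 ± 0.50 (adjusted p = 0.00299). Probe sets 1422864_at (-3.12, adjusted p = 0.000533) and 1427650_a_at (-3.25, 0.00236) gave a like value. Under quantile normalization the 3 differences were -1.89 for 1422865_at, -1.82 for 1422864_at and -2.02 for 1427650_a_at, all still called. The hCG response in knockout was 4.02 on 1422865_at (adjusted p = 0.00382) and 3.26 on 1422864_at (0.00113). On 1427650_a_at it was 2.23 and not called (adjusted p = 0.0643). In wild type the responses were 6.37, 5.01 and 4.89 in that order, all called. These 3 sets and 1440878_at correlate with each other at 0.958 to 0.981 over the 12 arrays, and at 0.0597 to 0.530 within groups. On 1452530_a_at the wild-type hCG arrays disagreed, at 2.50, 0.0189 and 2.25, against 0.623, -0.0387 and 0.0378 in knockout after hCG, and no comparison was called. Probe set 1452531_at was not called either (-0.36 after hCG).

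**Figure D2:**
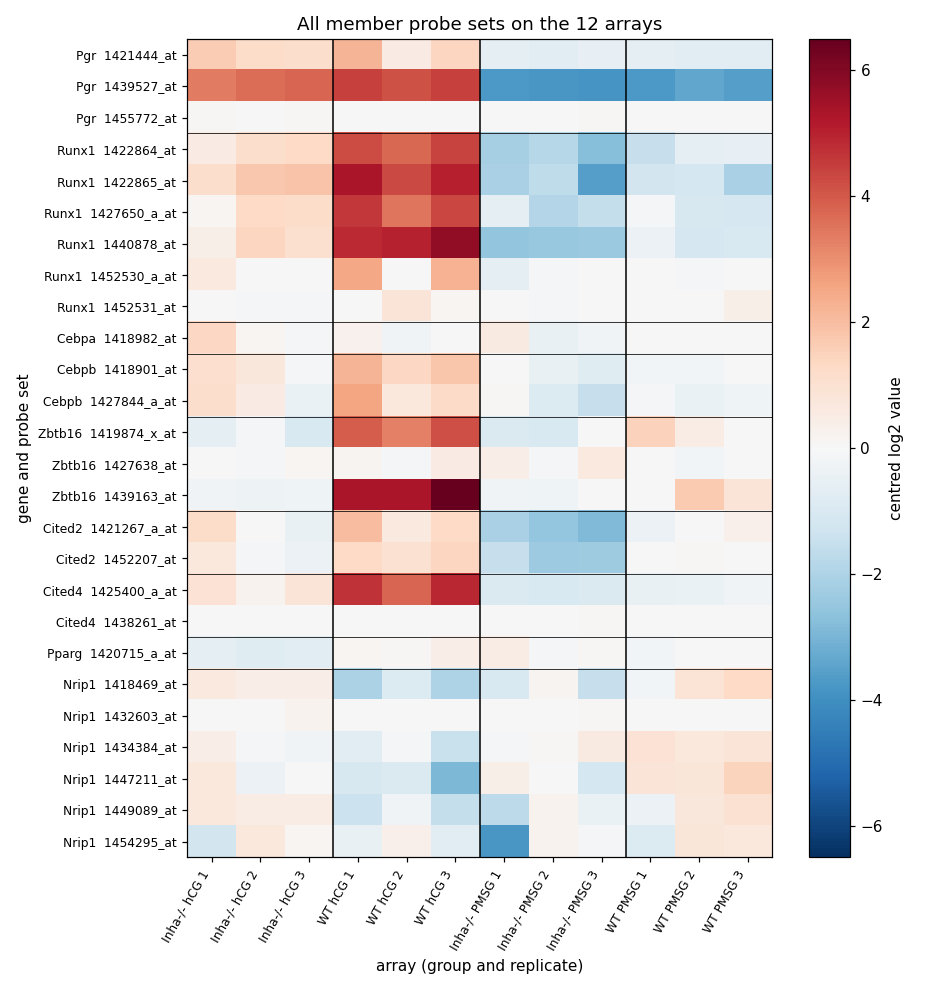
Centred log2 value (colour) of all 26 member probe sets (rows, by gene) on the 12 arrays (columns, from Inha-/- after hCG to wild type after PMSG). 2 of 3 Pgr, 4 of 6 Runx1 and 2 of 3 Zbtb16 probe sets show a common course across the groups, and the flat rows, such as Pgr 1455772_at and Cited4 1438261_at, stay near 0 on every array.

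Zbtb16, which encodes the repressor PLZF, rose with hCG in wild type, and no rise was measured in knockout. Probe set 1439163_at read -0.246, -0.309 and -0.296 in knockout after hCG, 5.31, 5.32 and 6.46 in wild type after hCG, -0.208, -0.300 and 0.0196 in knockout after PMSG, and -0.0196, 1.71 and 0.859 in wild type after PMSG. All 6 knockout arrays lie between -0.309 and 0.0196, and the 3 wild-type hCG arrays lie above all other arrays by more than 3. The response was -0.12 ± 0.42 in knockout (95% interval -1.06 to 0.82, adjusted p = 0.907) and 4.84 ± 0.42 in wild type (28.7-fold, adjusted p = 0.000139). Under quantile normalization the wild-type response was 2.99 (adjusted p = 0.00659). The 2 responses differed by -4.97 ± 0.59 (adjusted p = 0.00674).

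After hCG Zbtb16 was lower in knockout than in wild type (log2 fold change -5.98 ± 0.42, adjusted p = 8.03e-05), the largest genotype difference among the 26 probe sets, with -5.55 on the early and -6.19 on the late arrays. The flat knockout values may lie at background, so that 63.0-fold is no ratio of 2 measured levels. Under quantile normalization the difference in response was -3.15 and was not called (adjusted p = 0.107). Probe set 1419874_x_at, whose suffix marks probes that may match other sequences, read -0.648, -0.0670 and -0.998 in knockout after hCG, 3.96, 3.29 and 4.21 in wild type after hCG, -0.924, -1.01 and 0.0268 in knockout after PMSG, and 1.52, 0.501 and -0.0268 in wild type after PMSG. It separates the same 3 arrays from the others: knockout lay below wild type after hCG at -4.39 ± 0.45 (adjusted p = 0.000468), while its difference in response was -3.09 (0.0668). The 2 sets correlate at 0.939 over all arrays and at -0.101 within groups. The third, 1427638_at, was not called in any comparison.

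Cited4 responded in both genotypes, more in wild type. Probe set 1425400_a_at read 0.918, 0.204 and 0.825 in knockout after hCG, 4.71, 3.81 and 4.90 in wild type after hCG, -0.957, -0.979 and -0.939 in knockout after PMSG, and -0.496, -0.415 and -0.204 in wild type after PMSG. The 4 groups do not overlap and follow the order seen for Runx1 1440878_at. The response was 1.61 ± 0.27 in knockout (3.05-fold, adjusted p = 0.0243) and 4.84 ± 0.27 in wild type (28.7-fold, 1.06e-05). The flat knockout PMSG values may lie at background, so that 3.05-fold need not be a ratio of 2 measured levels. The same limit holds for the Cited4 differences below that use these arrays. The knockout call was lost without any 1 of 6 arrays, which were replicate 2 of wild type and all 3 of knockout after PMSG and replicates 1 and 3 of knockout after hCG (values 1.47 to 1.62). It was also lost with the random block (1.57, adjusted p = 0.112) and with only the groups compared (0.0578).

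The Cited4 responses differed between genotypes by -3.24 ± 0.39 (adjusted p = 0.00694), and by -1.98 under quantile normalization, where the call was lost. After hCG knockout stood at -3.82 ± 0.27 relative to wild type (14.2-fold lower, adjusted p = 8.87e-05), with -3.79 on the early and -3.84 on the late arrays. Under quantile normalization it was smaller, at -2.37 (adjusted p = 0.00101). After PMSG the difference was -0.59 (95% interval -1.20 to 0.03, adjusted p = 0.380), although the groups do not overlap. Probe set 1438261_at of Cited4 stayed near 0 and was not called in any comparison.

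Cited2, the other CBP and p300 binding cofactor, differed between genotypes before hCG. Probe set 1452207_at read 0.678, -0.119 and -0.387 in knockout after hCG, 1.29, 0.971 and 1.40 in wild type after hCG, -1.51, -2.37 and -2.30 in knockout after PMSG, and -0.0154, 0.0843 and 0.0154 in wild type after PMSG. The knockout PMSG arrays are the low ones, and the knockout hCG arrays spread around the wild-type PMSG arrays. The genotype difference was -2.09 ± 0.29 after PMSG (4.25-fold lower in knockout, adjusted p = 0.00736), and every fit without 1 array called it. On the early arrays alone it was -1.96 (adjusted p = 0.110).

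After hCG the Cited2 difference on 1452207_at was -1.16 ± 0.29 (adjusted p = 0.0313), a call lost without any 1 of replicate 2 of wild type after PMSG, replicates 1 and 3 of wild type after hCG and replicates 2 and 3 of knockout after hCG (values -1.16 to -0.94). It was also lost with the random block (-1.17, adjusted p = 0.0984), under quantile normalization (-0.88, 0.204), with only the groups compared (0.0792) and on the early arrays (-0.61, 0.723). Its response was 2.12 ± 0.29 in knockout (adjusted p = 0.00771) and 1.19 ± 0.29 in wild type (0.0283). The wild-type call was lost without any 1 of the 3 wild-type PMSG arrays or of replicates 1 and 3 of wild type after hCG (1.10 to 1.22), with the random block (1.25, adjusted p = 0.0787) and under quantile normalization (0.87, 0.211). The knockout call was lost under quantile normalization (1.73, 0.0630) and with only the groups compared (0.141), and with array weights the value was 1.33. The larger response in knockout was not shown to differ from that in wild type (difference 0.92, 95% interval -0.01 to 1.86, adjusted p = 0.484).

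The second Cited2 probe set, 1421267_a_at, correlates with the first at 0.975. It read 1.20, -0.0427 and -0.500 in knockout after hCG, 1.99, 0.610 and 1.28 in wild type after hCG, -2.13, -2.49 and -2.89 in knockout after PMSG, and -0.396, 0.0427 and 0.341 in wild type after PMSG. Again the knockout PMSG arrays stand below the other 9. The difference after PMSG was -2.50 ± 0.47 (adjusted p = 0.0237) and was lost without any 1 of replicates 2 and 3 of either PMSG group (-2.51 to -2.31). The knockout response was 2.72 ± 0.47 (adjusted p = 0.0256), lost without any 1 of replicate 2 of wild type after PMSG, replicates 2 and 3 of knockout after PMSG and replicate 2 of knockout after hCG (2.53 to 2.85). Under quantile normalization neither was called (-2.08, adjusted p = 0.0785, after PMSG and 2.27, 0.1003, for the response), nor was the response with only the groups compared (0.142). Both results called on 1452207_at that involve wild type after hCG were not called on this set: the genotype difference after hCG was -1.08 (adjusted p = 0.205), with overlapping groups, and the wild-type response 1.30 (0.117).

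Of the C/EBP factors, Cebpb rose with hCG in wild type and Cebpa was not called in any comparison. Cebpb 1418901_at read 1.11, 0.716 and -0.0944 in knockout after hCG, 2.23, 1.33 and 1.82 in wild type after hCG, 0.0372, -0.468 and -0.812 in knockout after PMSG, and -0.179, -0.174 and -0.0372 in wild type after PMSG. The hCG groups do not overlap, but the knockout arrays span more than 1 log2 unit. The response was 0.99 in knockout (adjusted p = 0.336) and 1.92 ± 0.33 in wild type (0.00645), and the 2 responses were not shown to differ (-0.93, adjusted p = 0.577). The genotype difference after hCG, -1.22 ± 0.33 (adjusted p = 0.0444), was lost without any 1 of 8 arrays, which were all 3 of wild type and replicate 2 of knockout after PMSG, replicates 1 and 3 of wild type after hCG and replicates 2 and 3 of knockout after hCG (values -1.29 to -0.88). Under quantile normalization it was -0.64 (adjusted p = 0.376), with the random block -1.29 (0.0875), and with only the groups compared it was not called (0.127).

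The second Cebpb probe set, 1427844_a_at, correlates with the first at 0.961, and none of its comparisons was called (-1.09 between genotypes after hCG, adjusted p = 0.308, and 1.76 for hCG in wild type, 0.076). Cebpa 1418982_at read 1.36, 0.109 and -0.0563 in knockout after hCG, 0.301, -0.249 and -0.0351 in wild type after hCG, 0.571, -0.483 and -0.210 in knockout after PMSG, and 0.0351, -0.0439 and 0.0410 in wild type after PMSG. All groups overlap. The response was 0.51 in knockout (95% interval -0.34 to 1.36) and -0.01 in wild type (-0.85 to 0.84).

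**Figure D3:**
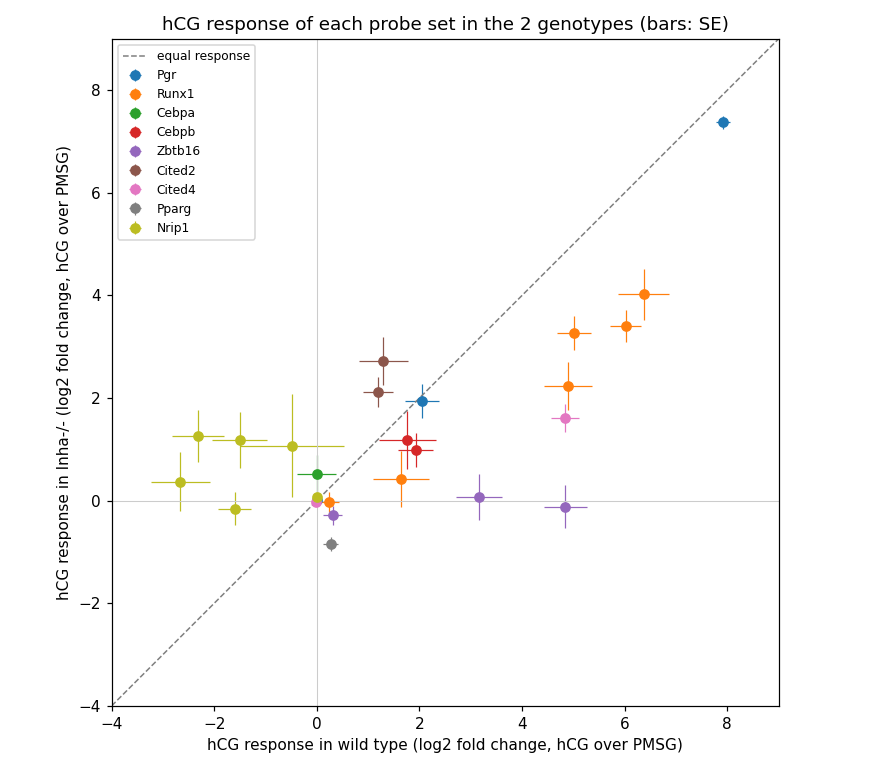
Response to hCG of the member probe sets, log2 fold change in Inha-/- (vertical) against wild type (horizontal), with bars of 1 SE; the diagonal marks equal responses. Pgr lies close to the diagonal at the upper end, Runx1 and Cited4 lie under it, and Zbtb16 lies near 0 on the knockout axis.

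Pparg, whose product mouse granulosa cells need for ovulation, was low on the knockout hCG arrays. Probe set 1420715_a_at read -0.610, -0.769 and -0.666 in knockout after hCG, 0.125, 0.0805 and 0.443 in wild type after hCG, 0.462, -0.0570 and 0.0744 in knockout after PMSG, and -0.157, -0.0356 and 0.0356 in wild type after PMSG. The 3 knockout hCG arrays lie under the other 9. Knockout was lower than wild type after hCG at -0.90 ± 0.14 (1.86-fold, adjusted p = 0.00343, called in every fit without 1 array), with -0.73 on the early and -0.98 on the late arrays. hCG changed it by -0.84 ± 0.14 in knockout (adjusted p = 0.0218), a call lost without replicate 2 or 3 of knockout after hCG (-0.85 to -0.80), with the random block (-0.86, 0.0877) or with only the groups compared (0.147). In wild type the change was 0.27 (95% interval -0.05 to 0.58, adjusted p = 0.316).

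The 2 Pparg responses differed by -1.11 ± 0.20 (adjusted p = 0.0405). This was lost without any 1 of 9 arrays, which were all 3 of wild type and replicate 3 of knockout after PMSG, replicates 1 and 3 of wild type after hCG and all 3 of knockout after hCG (values -1.16 to -0.996), and with the random block (-1.14, adjusted p = 0.0927). After PMSG the genotypes differed by 0.21 (95% interval -0.10 to 0.53).

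Nrip1 was the only measured member with a probe set higher in knockout than in wild type after hCG. Probe set 1418469_at read 0.612, 0.425 and 0.421 in knockout after hCG, -2.07, -0.895 and -1.996 in wild type after hCG, -1.01, 0.199 and -1.52 in knockout after PMSG, and -0.199, 0.879 and 1.30 in wild type after PMSG. The wild-type hCG arrays are low, and the knockout hCG arrays are tightly grouped between them and the highest wild-type PMSG arrays. The genotype difference after hCG was 2.14 ± 0.51 (4.41-fold, adjusted p = 0.0252), lost without any 1 of the 3 knockout hCG arrays or of replicates 1 and 3 of wild type after hCG (1.93 to 2.17). With the random block it was 2.21 and not called (adjusted p = 0.0626). It was 2.68 on the early and 1.87 on the late arrays.

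In wild type hCG lowered 3 of the 6 Nrip1 probe sets. The response on 1418469_at was -2.31 ± 0.51 (adjusted p = 0.0182), lost without any 1 of replicates 2 and 3 of wild type after PMSG and replicates 1 and 3 of wild type after hCG (-2.20 to -1.99). It was -2.66 ± 0.57 on 1447211_at (adjusted p = 0.0163; -2.44 and 0.0582 without replicate 3 of wild type after PMSG) and -1.60 ± 0.32 on 1434384_at (0.0123). None of the 3 was called with the random block (adjusted p = 0.0637, 0.119 and 0.0732 in that order) or with only the groups compared (0.0582, 0.0591 and 0.0547). On the same 3 probe sets the knockout changes were 1.26, 0.37 and -0.16, none of them called. The difference in response on 1418469_at was 3.58 ± 0.72 (adjusted p = 0.0640) and missed the threshold. Probe set 1449089_at correlates with 1418469_at at 0.906 and was not called, at 1.61 between genotypes after hCG (adjusted p = 0.0956). Probe set 1454295_at, with the largest spread of the 6, correlates with 1447211_at at 0.00184 and was not called in any comparison, nor was 1432603_at, which stayed near 0. Both of these were designed on 1 shared transcript accession.

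**Figure D4:**
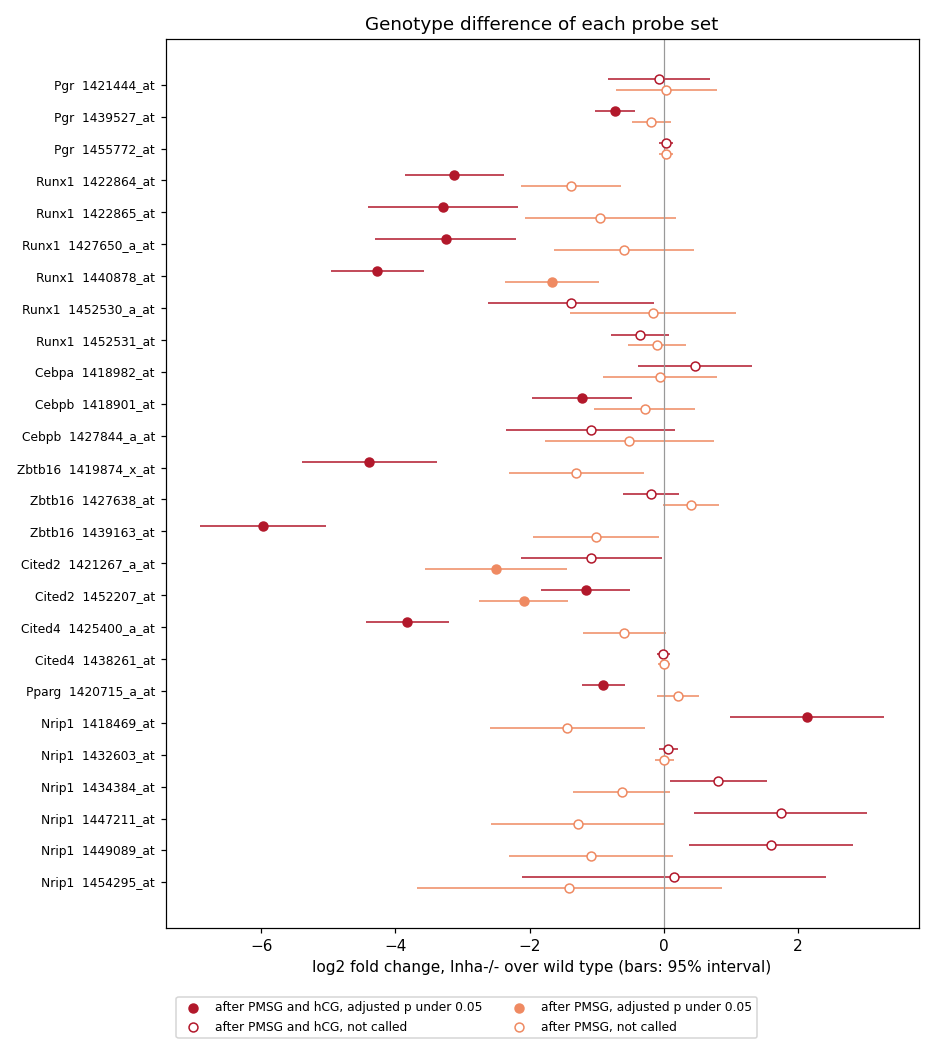
Genotype difference, Inha-/- over wild type, of all 26 member probe sets after PMSG and hCG (dark) and after PMSG alone (light), as log2 fold change with 95% interval; filled points have an adjusted p under 0.05. Differences after hCG run from -5.98 for Zbtb16 1439163_at to 2.14 for Nrip1 1418469_at.

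Counted over the 26 probe sets, 1 was higher and 11 were lower in knockout than in wild type after hCG, and 14 did not pass. Of all probe sets 12.1% were called in that comparison, 6.58% higher and 5.55% lower. After PMSG 0 were higher and 3 lower (limma; 3.04% of all were called, 1.44% higher and 1.6% lower), 1 of Runx1 and both of Cited2, and the count of 3 was 1 without replicate 3 of wild type or replicate 2 or 3 of knockout after PMSG. The median member difference was -0.81 after hCG and -0.59 after PMSG, against -0.000757 and 0.04 for all probe sets. At an unadjusted p under 0.05 the PMSG counts were 0 higher and 7 lower. Probe sets of 1 gene share their transcript and are not independent. The members were chosen with earlier results of these data known, so that counts over them, here and below, do not test the list.

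hCG raised 8 probe sets and lowered 1 in knockout, where 1.2% of all were called, 1.1% higher and 0.1% lower. The 8 were 2 of Pgr, 3 of Runx1, 2 of Cited2 and 1 of Cited4, and the 1 was Pparg. The count of 8 was 5 without replicate 2 of wild type or replicate 2 or 3 of knockout after PMSG. In wild type 11 rose and 3 fell, where 12.1% of all were called, 5.98% higher and 6.17% lower. The difference in response was called for 4 probe sets, all with a lower response in knockout, against 0.93% of all probe sets and 0.721% with a lower response, and the 4 became 2 without replicate 2 or 3 of wild type or replicate 3 of knockout after PMSG or replicate 3 of either genotype after hCG, and 6 without replicate 2 of wild type after hCG. With 1 probe set per gene the 9 genes gave 5 lower and 0 higher in knockout after hCG by limma (5.47% and 7.79% of 18193 genes; 6 and 0 at an unadjusted p under 0.05), and 3 with a lower response in knockout (0.841%). These were Zbtb16, Cited4 and Pparg, since Runx1 is then represented by 1422865_at. The 0 higher rests on the same choice, since Nrip1 is represented by 1454295_at, and so do the 5 lower, since Cebpb and Cited2 are represented by 1427844_a_at and 1421267_a_at, which were not called after hCG.

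The 10 other genes whose course over the 12 arrays was most like Pgr 1439527_at were Nts, Sfrp2, Chst15, Epgn, Sult1e1, Btc, Ptx3, Osgin2, Enpp3 and Gpr83, with Pearson r between 0.984 and 0.998. The arrays share 4 groups and 1 large hormone response, so that 52 of 18193 genes have an r above 0.95. Btc and Epgn encode ligands of the EGF receptor, and Ptx3 encodes a protein that stabilizes the cumulus matrix. Their hCG responses were 6.83 in knockout and 7.55 in wild type for Btc, 6.42 in knockout and 7.84 in wild type for Epgn, and 7.50 in knockout and 7.53 in wild type for Ptx3. That of Nts, which encodes neurotensin, was 10.42 in knockout and 11.88 in wild type. Among the members the r with Pgr was 0.92 for Runx1, 0.80 for Cited4, 0.73 for Cebpb, 0.70 for Cited2, 0.54 for Zbtb16, 0.24 for Cebpa, 0.13 for Nrip1 and -0.31 for Pparg, each for the probe set with the largest SD. For Nrip1 that is 1454295_at, which was not called in any comparison, and on the other 5 Nrip1 probe sets r ran from -0.69 (1434384_at) to 0.31 (1432603_at).

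Of 20 measured partners and paralogues of the members, 1 was higher and 3 were lower in knockout than in wild type after hCG, beside 7.79% and 5.47% of all genes, with a median of -0.10. The 3 were 1 without replicate 3 of wild type after hCG and 6 without replicate 3 of knockout after PMSG. Cited1, the third CITED cofactor, stood at -3.33 ± 0.31 in knockout relative to wild type after hCG (adjusted p = 0.000328). It was the 1 gene of the list that rose with hCG in wild type (2.11 ± 0.31, adjusted p = 0.00312), against -0.54 in knockout, which was not called. The responses differed by -2.65 (adjusted p = 0.0320), lost without any 1 of the 6 PMSG arrays or of replicate 3 of either genotype after hCG (-2.78 to -2.43).

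Pgrmc2, a membrane-associated progesterone receptor component, was higher in knockout than in wild type after hCG by 1.28 ± 0.23 (adjusted p = 0.00674). Ncoa1, the nuclear receptor coactivator SRC-1, was lower in knockout after hCG (-0.67, adjusted p = 0.0227) and after PMSG (-0.80, 0.0280), where 1.64% of all genes were lower. The first call was lost without any 1 of replicates 1 and 3 of wild type and 2 and 3 of knockout after hCG (-0.66 to -0.52). The second was lost without any 1 of the 3 wild-type or of replicates 1 and 3 of the knockout PMSG arrays (-0.84 to -0.74). Ddit3, a C/EBP homologue, stood at -0.75 after hCG (adjusted p = 0.0428), a call that held without replicate 1 or 3 of knockout after PMSG or replicate 1 of wild type after hCG and was lost without any other array (-0.78 to -0.56). In knockout 0 of the 20 passed the test for hCG by limma, and at an unadjusted p under 0.05 2 were higher and 1 lower after hCG than after PMSG.

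Of 9 genes known to depend on PGR in the ovulating mouse follicle, 3 rose with hCG in knockout and 7 in wild type, beside 1.3% and 6.34% of all genes. The count of 3 was 5 without replicate 1 of knockout after hCG. After hCG 5 were lower in knockout than in wild type, beside 5.47% of all genes. Epas1, which encodes a hypoxia-inducible factor, changed by -0.51 in knockout (adjusted p = 0.848) and by 2.59 ± 0.48 in wild type (0.00840), and was at -2.74 ± 0.48 in knockout relative to wild type after hCG (0.00585). Il6, a cytokine of the cumulus, rose by 3.50 ± 0.39 in knockout and 4.34 ± 0.39 in wild type, and its genotype difference after hCG was not called (-0.74, adjusted p = 0.331). Adcyap1, the gene of the peptide PACAP, changed by 3.78 in knockout (adjusted p = 0.109) and rose by 6.74 ± 0.89 in wild type (0.00164).

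Responses on that list that differed between genotypes were those of Prkg2, a protein kinase (difference -6.30), Snap25, a protein of vesicle release (-6.10), and Edn2, which encodes endothelin 2 (-1.57, adjusted p = 0.0235), all smaller in knockout. The Edn2 call was lost without any 1 of replicates 2 and 3 of wild type and 1 and 3 of knockout after PMSG, replicate 3 of wild type after hCG and replicates 2 and 3 of knockout after hCG (-1.57 to -1.44). Adamts1, a matrix protease, rose in both genotypes (1.75 in knockout and 2.34 in wild type). It was lower in knockout after hCG (-2.005, adjusted p = 0.000986) and after PMSG (-1.42, 0.0168), and the second call was lost without replicate 1 or 2 of wild type after PMSG (-1.41 to -1.35). Hif1a and Ctsl were not called in any comparison. The list median for hCG was 1.62 in knockout and 2.59 in wild type, against -0.04 and 0.0042 over all genes.

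Of 7 genes reported to depend on RUNX factors in rat granulosa cells, 2 rose with hCG in knockout and 3 in wild type, beside 1.3% and 6.34% of all genes. After hCG 1 was higher and 2 were lower in knockout than in wild type, beside 7.79% and 5.47% of all genes. Ptgs2, the cyclooxygenase of ovulation, rose by 10.78 ± 0.26 in knockout and 8.06 ± 0.26 in wild type (difference 2.73, adjusted p = 0.0127). Akr1c18, which encodes the enzyme that inactivates progesterone, changed by 0.04 in knockout and rose by 4.32 ± 0.57 in wild type (difference -4.28, adjusted p = 0.0477). That difference was called without replicate 3 of wild type after PMSG or replicate 2 of wild type after hCG and lost without any other array (-4.70 to -3.80). Under quantile normalization it was -2.87 and not called (adjusted p = 0.304), and the wild-type rise was 2.72.

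Rgcc, a regulator of the cell cycle, rose by 1.79 ± 0.31 in knockout and 2.89 ± 0.31 in wild type, and the responses were not shown to differ (-1.09, adjusted p = 0.410). The knockout call was lost without any 1 of replicate 2 of wild type and all 3 of knockout after PMSG and replicates 1 and 3 of knockout after hCG (1.52 to 1.84). Its genotype difference after hCG (-1.33, adjusted p = 0.0238) was lost without replicate 3 of wild type or replicate 2 or 3 of knockout after hCG (-1.28 to -1.09). It was smaller under quantile normalization (-0.59, adjusted p = 0.405) and on the early arrays (-0.47, 0.974).

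Of 36 comparisons called over the genes of these 3 lists, 9 were lost under quantile normalization: Epas1 for hCG in wild type, the differences in response of Akr1c18, Cited1 and Edn2, the genotype differences of Ddit3 and Rgcc after hCG and of Adamts1 after PMSG, and both of Ncoa1. With the random block 5 were lost, which were Ddit3, Ncoa1 and Rgcc between genotypes after hCG, Rgcc for hCG in knockout and the difference in response of Akr1c18. With only the groups compared 7 of 30 were lost, among them Adamts1, Il6 and Rgcc for hCG in knockout. These lists were drawn up with earlier results of these data known.

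**Figure D5:**
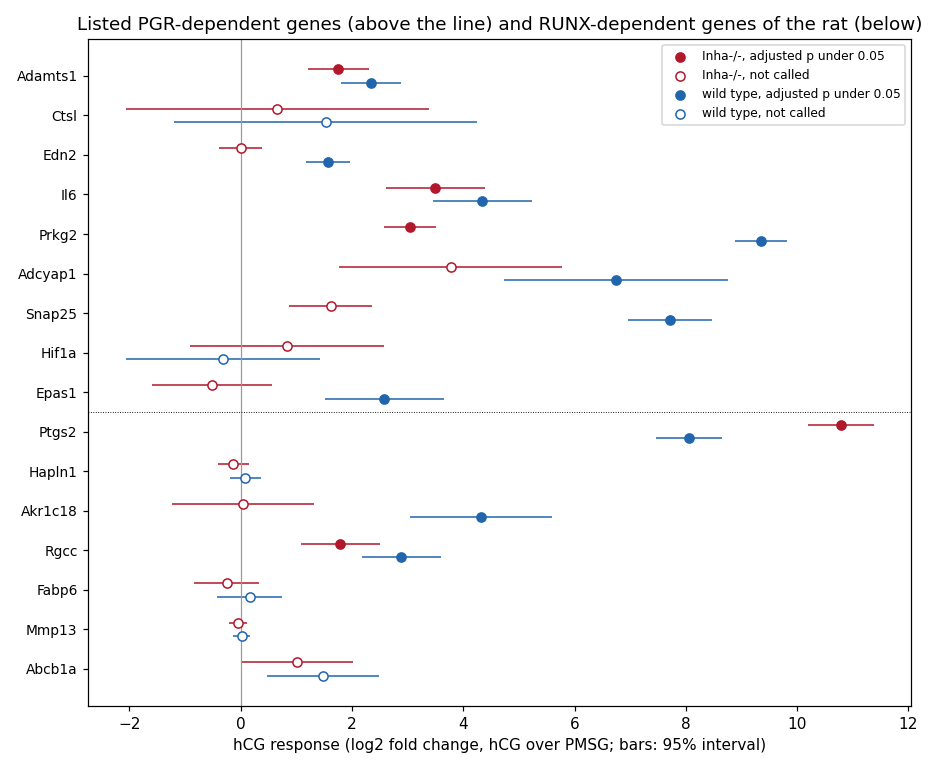
hCG response (log2 fold change with 95% interval) in Inha-/- and in wild type of the genes listed as PGR-dependent in mouse and, below the line, as RUNX-dependent in rat granulosa cells, 1 probe set per gene. Filled points have an adjusted p under 0.05. Il6 rose in both genotypes, Prkg2 and Snap25 lie further right in wild type, and the response of Ptgs2 is 10.78 in knockout and 8.06 in wild type.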

How the data were processed

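RNA of 12 granulosa cell samples was measured on 1 Affymetrix array each. The authors deposited log2 values after GCRMA, per the submitters' processing notes. Its version is not given in the sources used here. Across the arrays every row has a median of 0, which the labels do not mention, and no further scaling was applied since the arrays' own medians ran from -0.0197 to 0.0930. Depth does not apply to arrays, and 3 per group limit the precision. The table held 0 columns of other samples.

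A model with 1 mean per group was fitted with limma 3.58.1 in R 4.3.3 to the 34945 probe sets that name 1 gene, with Benjamini-Hochberg adjustment over all of them and calls at 0.05. The script was tested on simulated data. Probe sets naming several genes (932) or none (9160) and 64 controls were left out. Where 1 probe set stands for a gene, it is the one with the largest SD over the arrays, a choice that favours probe sets that respond. Named genes were Inha, every member, up to 6 called genes per list and comparison, and the 10 genes most like Pgr. Members and lists were chosen with earlier results of these data known. Symbols came from the platform annotation, and promoter sequences from RefSeq (GRCm38.p6). The listed genes Runx2 and Cyp19a1 were not analysed here, and the planned comparison of protein sequences was not run.

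Alternatives were other filters, quantile normalization, other variance models, the groups compared alone, blocks, serial number sets, array weights and leaving out each array.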

Additional observations from a re-analysis of the deposited data

Results flagged for a closer look

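The following responses to hCG differed between knockout and wild type by the test of that difference itself (limma, adjusted p under 0.05 over all probe sets). Among the members, the response in knockout minus that in wild type was -2.61 for Runx1 1440878_at, -4.97 for Zbtb16 1439163_at, -3.24 for Cited4 1425400_a_at and -1.11 for Pparg 1420715_a_at. Zbtb16 and Cited4 were called in every fit that left out 1 array, and Runx1 and Pparg were not. Under quantile normalization the calls of Runx1 (-1.71), Zbtb16 (-3.15) and Cited4 (-1.98) were lost, and that of Pparg was kept. In the lists of partners and dependent genes it was -2.65 for Cited1, -1.57 for Edn2, -6.30 for Prkg2, -6.10 for Snap25 and -4.28 for Akr1c18, and 2.73 for Ptgs2, whose response was the larger one in knockout. The calls of Cited1, Edn2 and Akr1c18 were each lost under quantile normalization and in several fits that left out 1 array. No explanation was tested.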

How the results depend on the processing

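Of 2916 member values under the alternatives, 91 had the opposite sign to the reported one, and in 89 of these the value was called in neither fit. The other 2 had a call: the genotype difference of Pgr 1439527_at after hCG, called as reported, became 0.57 under quantile normalization, and that of Cebpa after PMSG became 0.53 and called with array quality weights. Counts of member probe sets moved as follows, and the cause was not tested. Lower in knockout after PMSG (3): 1 under quantile normalization, 5 with the array name number as a random block, 0 on early arrays, 10 with array weights, and 1 to 3 without 1 array; higher (0): 3 with array weights. After hCG, higher (1): 3 among the upper 60% by SD, 0 with the random block, 2 with the serial set as covariate, 0 on late arrays, 4 with array weights and 0 to 2 without 1 array; lower (11): 3 on early and 0 on late arrays, and 9 to 12 without 1 array. Lowered by hCG in wild type (3): 0 with only the groups compared or the random block, 1 on early arrays and 1 to 3 without 1 array. Raised in knockout (8): 4 with only the groups compared and 5 to 8 without 1 array. Lowered in knockout (1): 0 with only the groups compared or the random block, and 0 to 1 without 1 array. Smaller response in knockout (4): 1 under quantile normalization and on early arrays, 2 with trended variance, the replicate block or the random block, 11 with array weights and 2 to 6 without 1 array; larger (0): 1 among the upper 60% by SD and on early arrays, 5 with array weights and 0 to 1 without 1 array.

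Samples of the same replicate number deviated from their group means at correlations of 0.0949 to 0.265 between genotypes after PMSG, -0.0488 to 0.208 after hCG, 0.0378 to 0.195 for hCG in wild type and -0.141 to 0.0713 in knockout, so that the numbers were not taken to pair samples. With the replicate block 2 of the 4 smaller responses stayed called and all other member calls were kept (3 of 3 and 12 of 12 between genotypes after PMSG and hCG, 14 of 14 and 9 of 9 for hCG in wild type and knockout). Over all probe sets the difference in response was called for 325, against 134 with trended variance, 142 without replicate 3 of wild type after PMSG and 7385 with array weights. After hCG 4238 genotype differences ran from 26 on late arrays, which hold 2 arrays of each hCG group, to 9309 with array weights. After PMSG 1062 ran from 158 on early arrays to 9207 with array weights, and was 527 without replicate 3 of wild type. For hCG in knockout 419 ran from 175 with only the groups compared to 8962 with array weights. In wild type 4245 ran from 1937 on early arrays to 10699 with array weights. Wild type after PMSG has no late array, so that 3 comparisons could not be had on late arrays. Knockout after PMSG has 1 late array, so that no count is given for hCG in knockout on them. Array weights ran from 0.125 for replicate 3 to 7.64 for replicate 1 of knockout after PMSG. In the weighted fits that group therefore rests mostly on 1 array. Centred values hold no signal over background, which limits any statement on levels.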
